A study of Mus musculus with 123 samples.

Results

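Open chromatin in the cerebral cortex was compared between the end and the middle of the light period in mice that had slept undisturbed. The comparison holds 10 ATAC-seq libraries, 5 taken at ZT12 and 5 at ZT6, of the 60 ATAC-seq libraries and 123 libraries in all, and covers every one of 130727 peaks. Zeitgeber time (ZT) counts hours from lights on, so ZT12 is the moment lights go off and ZT6 the midpoint of the light phase. All 10 animals were C57BL/6J males (a common inbred strain) with no transgene, no drug and no sleep deprivation, housed in 12 h of light and 12 h of dark with food at all times. The protocol gives an age of 11 to 12 weeks for the deprivation of the other mice of the study and no separate age for controls. The ZT12 animals were T12N1, T12N2 and T12N4 of batch 1 and T12N5 and T12N6 of batch 2. The ZT6 animals were T6N2, T6N3 and T6N4 of batch 1 and J76N1 and J76N2 of batch 2; the last pair carry the label of controls for the mice collected 7 days after sleep deprivation. Each library came from the ground cortex of 1 mouse, and the same powder gave an RNA-seq library, so both assays describe the same animals. Bulk tissue mixes all cell types of the cortex: more cells with an open site and a more open site per cell cannot be told apart. RNA of the 12 excitatory neuron markers had a median of 5.90 (log2 level at ZT12) against 2.27 for 7 measured striatum and hippocampus markers. Over the 10 marker lists the summed level on the linear scale at ZT12 was 0.885 to 1.06 times that at ZT6, lowest for mural cells (182 against 205.6) and highest for endothelium (344.9 against 325.4). The endothelial sum went against most of its called markers: 5 of the 12 were lower in RNA (limma adjusted p below 0.05) and 2, Slc2a1 and Ly6c1, higher.

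ATAC-seq uses a transposase that cuts and tags DNA where nucleosomes leave it exposed, so that a peak of reads marks a promoter, an enhancer or another accessible site. Mice sleep mostly in the light, and the interval from ZT6 to ZT12 ends the rest phase. Over the same hours the molecular clock moves from the arm in which CLOCK and BMAL1 bind E-boxes to the arm in which the PER and CRY repressors accumulate, and the adrenal hormone corticosterone rises towards dark onset in nocturnal rodents.

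Called peaks (limma adjusted p below 0.05) were 0.504% of all peaks and a smaller share at promoters, 22 of the 15964 peaks within 1 kb of a transcription start. A transcription start lay within 1 kb of 2.01% of the called-higher, 12.6% of the called-lower and 12.7% of all peaks. Peaks overlapped 12410 promoter windows, each from 250 bases before to 50 after a transcription start. At 12 of these the peak was called in either direction, and it covered the 250 bases whole at 10 of them. The 4 shown here were picked from those 10 for their composition, as the lowest in G or C among the higher ones and the highest among the lower ones, and do not stand for the rest. They are the 250 bases before the transcription start in RefSeq (build GRCm38.p6), on the strand of the gene, with CG dinucleotides in capitals. Tecrl (trans-2,3-enoyl-CoA reductase like, chr5:83355196-83355445, minus strand) and the predicted gene Gm38777 (chr6:25032891-25033140, plus strand) were more open at ZT12. Glis1 (a Krueppel-like zinc finger factor, chr4:107434469-107434718, plus strand) and Hps4 (a subunit of the BLOC-3 complex of lysosome-related organelles, chr5:112342845-112343094, plus strand) were less open at ZT12.
Tecrl: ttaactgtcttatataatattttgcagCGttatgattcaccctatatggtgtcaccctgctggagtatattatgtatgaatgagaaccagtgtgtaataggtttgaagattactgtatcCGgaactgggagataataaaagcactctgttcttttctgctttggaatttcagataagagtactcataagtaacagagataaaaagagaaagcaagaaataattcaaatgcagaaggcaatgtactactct
Gm38777: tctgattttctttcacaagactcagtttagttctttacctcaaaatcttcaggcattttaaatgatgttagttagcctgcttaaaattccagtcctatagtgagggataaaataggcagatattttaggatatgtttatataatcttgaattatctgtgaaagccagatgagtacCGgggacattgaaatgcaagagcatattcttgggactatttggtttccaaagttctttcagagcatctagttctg
Glis1: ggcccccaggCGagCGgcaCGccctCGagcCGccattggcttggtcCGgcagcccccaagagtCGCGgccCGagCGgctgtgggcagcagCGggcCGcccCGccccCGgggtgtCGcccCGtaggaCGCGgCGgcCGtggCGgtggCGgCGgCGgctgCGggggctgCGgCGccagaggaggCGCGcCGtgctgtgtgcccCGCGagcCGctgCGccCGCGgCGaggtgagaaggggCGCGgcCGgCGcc
Hps4: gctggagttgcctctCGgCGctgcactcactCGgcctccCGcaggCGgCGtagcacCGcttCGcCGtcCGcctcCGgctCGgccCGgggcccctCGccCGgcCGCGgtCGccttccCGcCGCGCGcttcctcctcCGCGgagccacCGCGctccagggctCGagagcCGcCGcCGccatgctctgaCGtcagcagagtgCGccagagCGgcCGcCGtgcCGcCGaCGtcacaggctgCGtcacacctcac
The Tecrl window holds 2 CG dinucleotides and is 34.4% G or C, and the Gm38777 window holds 1 and is 34.8% G or C. The Glis1 window holds 41 and is 82.4% G or C, and the Hps4 window holds 39 and is 76.4% G or C. Over the 12410 promoter windows that overlap a peak, the median was 14 CG dinucleotides and 59.6% G or C.

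At ZT12, 571 peaks were higher and 88 lower than at ZT6 (limma with batch as a term, Benjamini-Hochberg adjusted p below 0.05 over all peaks). These are 0.504% of the peaks tested, 0.437% higher and 0.0673% lower. The rises had a median of 0.80 on the log2(signal + 0.5) scale (1.75-fold) with a median SE of 0.18, and the falls a median of -0.89. The most extreme values were 1.66 (3.17-fold), at a peak 7.38 kb from Ttyh1, which codes for a tweety-family membrane protein, and -1.38. The median over all peaks was -0.01. In 342 of the 571 higher peaks and 56 of the 88 lower peaks every ZT12 library lay beyond every ZT6 library, against 2.4% of all peaks.

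The counts moved strongly with single libraries. Without T6N4, the shallowest of all ATAC libraries with 2.21 M reads in peaks, 54 peaks were called higher and 3 lower. All 571 higher and 88 lower peaks still had the same sign, and the 54 and 3 were all among them. The remaining libraries had helped to choose these peaks, so the kept sign is no independent repeat. Leaving out J76N1 raised the counts to 1121 and 211, and leaving out T6N2 raised them to 1120 and 166. Leaving out J76N2 gave 216 and 23, leaving out T6N3 gave 203 and 17, leaving out T12N1 gave 175 and 25, leaving out T12N4 gave 216 and 37, and leaving out T12N6 gave 161 and 30; without T12N5 the lower count rose to 156. The reads in peaks ran from 2.94 to 4.86 M at ZT12 and from 2.21 to 6.91 M at ZT6. With log2 reads in peaks as a covariate, 542 peaks were higher and 83 lower.

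Compared with all peaks, those that opened towards ZT12 lay more often far from genes, and those that closed lay more often among genes. A 1 Mb stretch centred on a higher peak overlapped a median of 3 protein-coding genes (quartiles 1 and 6), against 8 for all peaks (quartiles 4 and 15) and 15.5 for lower peaks (quartiles 8.75 and 23). Of the higher peaks 13% had no protein-coding gene in that stretch, against 2.54% of all peaks and 0% of the lower ones. Higher peaks overlapped a gene body in 31.3% of cases, lower peaks in 71.6% and all peaks in 59.5%. A transcription start lay within 1 kb of 2.01% of the higher, 12.6% of the lower and 12.7% of all peaks. Higher peaks were wider than the rest (median 713 bp against 546 bp) and stronger (median signal 8.41 against 4.60).

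The difference between the times moved along the whole range of gene density. Among the 3314 peaks with no gene around them the median difference was 0.24 (quartiles 0.05 and 0.42), with 74 peaks called higher and 0 lower. It was 0.11 with 1 to 2 genes, 0.06 with 3 to 5, 0.01 with 6 to 10 and -0.07 with 11 to 20. Among the 19343 peaks with more than 20 genes it was -0.13 (quartiles -0.28 and 0.01), with 5 called higher and 29 lower. The order was the same among peaks of a middle level, where the median ran from 0.23 to -0.16.

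**Figure D1:**
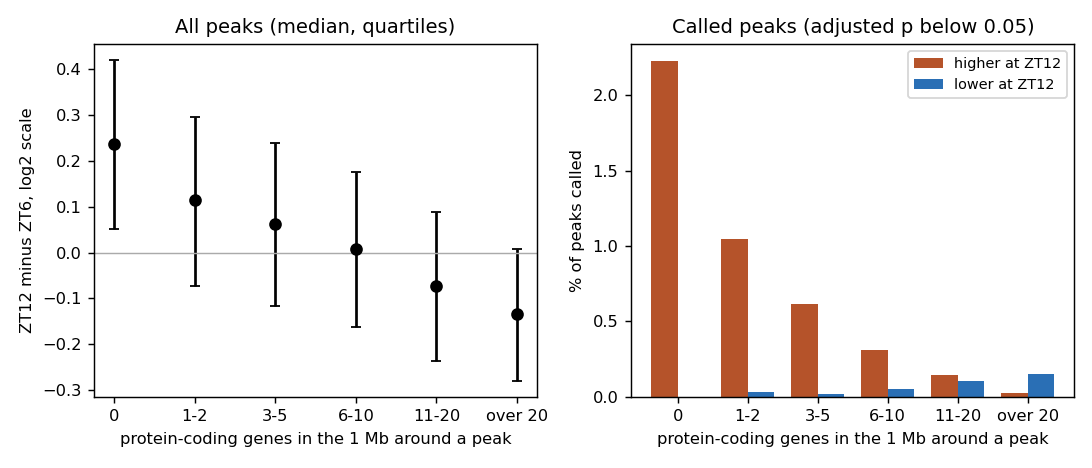
Left, the ZT12 minus ZT6 difference of all peaks (points, median; bars, quartiles; log2 scale) by the number of protein-coding genes in the 1 Mb around a peak; right, the percentage of peaks called higher or lower in each class. The median falls from 0.24 with no gene to -0.13 with more than 20, and the share called higher falls from 2.23% to 0.0258%.

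One value for each library summarizes this pattern: the mean log2 signal of the 3314 gene-poor peaks minus that of the 19343 peaks with more than 20 genes. This measure was chosen after the pattern had been seen in the same libraries. Its p-values below therefore describe the separation and are no independent test of it. At ZT12 it was -0.08 (T12N1), -0.25 (T12N2), -0.07 (T12N4), -0.36 (T12N5) and -0.09 (T12N6). At ZT6 it was -0.36 (T6N2), -0.58 (T6N3), -0.80 (T6N4), -0.35 (J76N1) and -0.62 (J76N2). The ZT6 libraries were lower, and the groups overlapped only by T12N5, which fell just below J76N1 and T6N2. The means were -0.17 ± 0.13 and -0.54 ± 0.19 (SD, n = 5 each), a difference of 0.37 (exact permutation test, two-sided, p = 0.0238; smallest possible 0.00794). Without T6N4 the difference was 0.31 (exact permutation p = 0.0317). It was 0.45 within batch 1 (3 against 3, exact permutation p = 0.1, the smallest possible) and 0.26 within batch 2 (2 against 2, exact permutation p = 0.667, smallest possible 0.333).

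Other libraries spanned as wide a range in this measure. The 49 libraries outside the comparison ran from -1.04 to 0.19 with a median of -0.34, and the 8 ZT0 controls alone from -0.70 to 0.19. T36 mice, sampled at the same time of day as ZT12 but after sleep deprivation, had -0.57, -0.37 and -0.28, and T30 mice, sampled at the time of day of ZT6, had -0.40, -0.32 and -0.05. On the second day after sleep deprivation, T60 mice, at the time of day of ZT12, had -0.38, -0.59 and -0.15. T54 mice, at that of ZT6, had 0.07, -0.36 and -0.22. T60 is wholly of batch 2 and T54 of batch 1. Neither pair of groups repeated the order of the undisturbed mice. When the measure entered the model as a covariate, 25 peaks were called higher and 3 lower at ZT12; the 25 were all among the 571, while none of the 3 were among the 88. The part that such a library-wide property takes in the difference between the times was not tested.

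**Figure D2:**
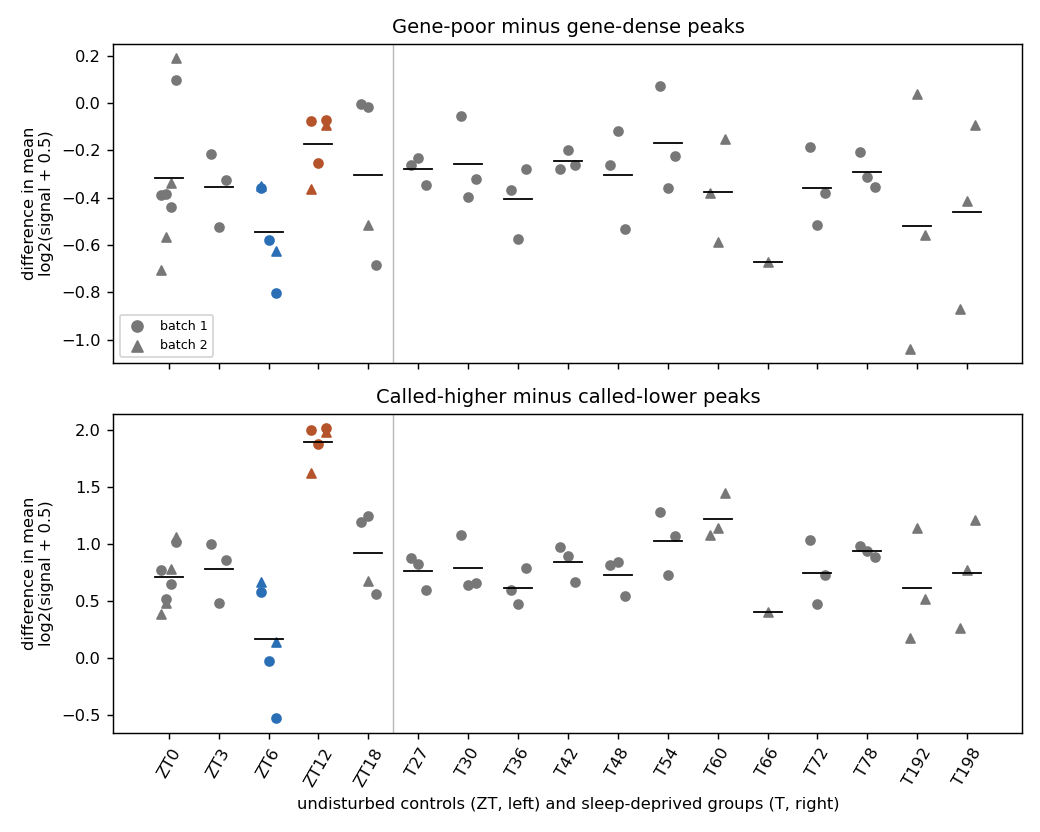
Each point is 1 library (circle, batch 1; triangle, batch 2), grouped by undisturbed controls (ZT) and sleep-deprived mice (T, hours on the study's clock), with black lines at the group means. Top, gene-poor minus gene-dense peaks, where ZT12 runs from -0.36 to -0.07 and ZT6 from -0.80 to -0.35; bottom, the mean log2 signal of the called-higher peaks minus that of the called-lower peaks, which were chosen on the ZT12 and ZT6 libraries.

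Promoter peaks as a whole took a like share of the signal at both times. The peaks within 1 kb of a transcription start held 30.4% ± 0.779 (SD, n = 5) of the signal at ZT12 and 30.9% ± 0.708 at ZT6 (exact permutation test, two-sided, p = 0.246). By base composition, windows under 45% G or C had a median difference of 0.05, with 5 called higher and 1 lower of 925, and windows above 70% a median of -0.08, with 0 and 2 of 1914. Per library, the low class minus the high class was -0.92 ± 0.05 at ZT12 and -1.05 ± 0.13 at ZT6 (SD, n = 5 each), a difference that did not pass the test (0.13, exact permutation test, two-sided, p = 0.0873; 0.151 without T6N4).

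The 12 leading rises, the largest among called peaks of sufficient signal whose groups do not overlap, were intergenic. They lay from 0.031 kb to 1010 kb from the nearest protein-coding gene, with a median of 1 such gene within the 1 Mb around them. Signals are listed below in the order T12N1, T12N2, T12N4, T12N5 and T12N6 for ZT12 and J76N1, J76N2, T6N2, T6N3 and T6N4 for ZT6. The largest of the 12, 2.63-fold (log2 1.40, SE 0.25, adjusted p = 0.000998), was at chr5:68889385-68889793 (mm10), 219.5 kb from Kctd8, an auxiliary subunit of GABA-B receptors. Its signal at ZT12 was 8.57, 7.07, 9.22, 7.77 and 11.1, and at ZT6 it was 5.17, 2.1, 6.00, 3.33 and 0.892. All ZT12 libraries were above all ZT6 libraries, and T6N4 was the lowest; without T6N4 the difference was 1.04 (adjusted p = 0.068).

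The rise with the smallest adjusted p of the 12 was at chr4:5130651-5131529, 337.3 kb from Bpnt2, a Golgi phosphatase of sulfation metabolism. Its signal was 21, 22.2, 25.4, 18.7 and 24.6 at ZT12 and 11.6, 7.94, 12.9, 8.59 and 7.58 at ZT6. The groups were well apart, by 1.18 on the log2 scale (SE 0.17, adjusted p = 4.02e-05; 0.000904 without T6N4). The peak 0.031 kb outside Adgrv1, an adhesion receptor of inner-ear stereocilia and of the Usher complex, had 12.5 to 23.0 at ZT12 and 4.01 to 12.2 at ZT6 (log2 1.35, SE 0.20, adjusted p = 8.13e-05). The peak 154.5 kb from Map3k7, the TAK1 kinase of inflammatory and TGF-beta signalling, had 9.42 to 16 at ZT12 and 2.70 to 5.80 at ZT6 (log2 1.25, SE 0.20). The RNA of Map3k7 differed by 0.00 (SE 0.05). Of the other 8 rises, from 1.18 to 1.33, 7 had Pth2r, Tmtc2, 4931408C20Rik, Cypt12, Gpc5, Rspo3 and Fbxl7 as nearest genes. Of the 12 rises, 7 were still called without T6N4.

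The 12 leading falls lay at or near genes, 6 of them inside one. The largest was at chr6:118649377-118649778 in Cacna1c, which codes for the pore of the L-type calcium channel Cav1.2. Its signal at ZT12 was 1.94, 1.01, 1.5, 1.68 and 1.04, and at ZT6 it was 3.88, 4.34, 2.77, 5.27 and 3.57. The ZT12 libraries were all lower, 2.31-fold in the fit (log2 -1.21, SE 0.24, adjusted p = 0.0037; 0.0262 without T6N4). It was the 1 fall of the 12 still called without T6N4.

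A peak in Grin2b, which codes for the GluN2B subunit of NMDA receptors, fell by 1.06 (SE 0.21, adjusted p = 0.00475). Its signal was 1.94, 3.37, 1.5, 2.94 and 3.11 at ZT12 and 4.60, 6.74, 5.77, 4.44 and 7.58 at ZT6. The groups did not overlap, and all values were low. Cited4, a transcription co-activator partner of CBP, held a peak that fell by 1.05 (SE 0.23, adjusted p = 0.00927), while its RNA rose by 0.31 (SE 0.08, adjusted p = 0.0234). The other 9 falls, from -1.06 to -0.95, had Rapgef4, Lingo3, Zfand2a, Arf2, Chit1, Sel1l3, Fam189a1, Npcd and Slc25a17 as nearest or overlapping genes. The RNA of Grin2b and Cacna1c did not pass the test, with differences of -0.03 (SE 0.07) and 0.11 (SE 0.07). The group means of the 12 falls lay between 1.43 and 6.37, so that few reads carry each value.

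**Figure D3:**
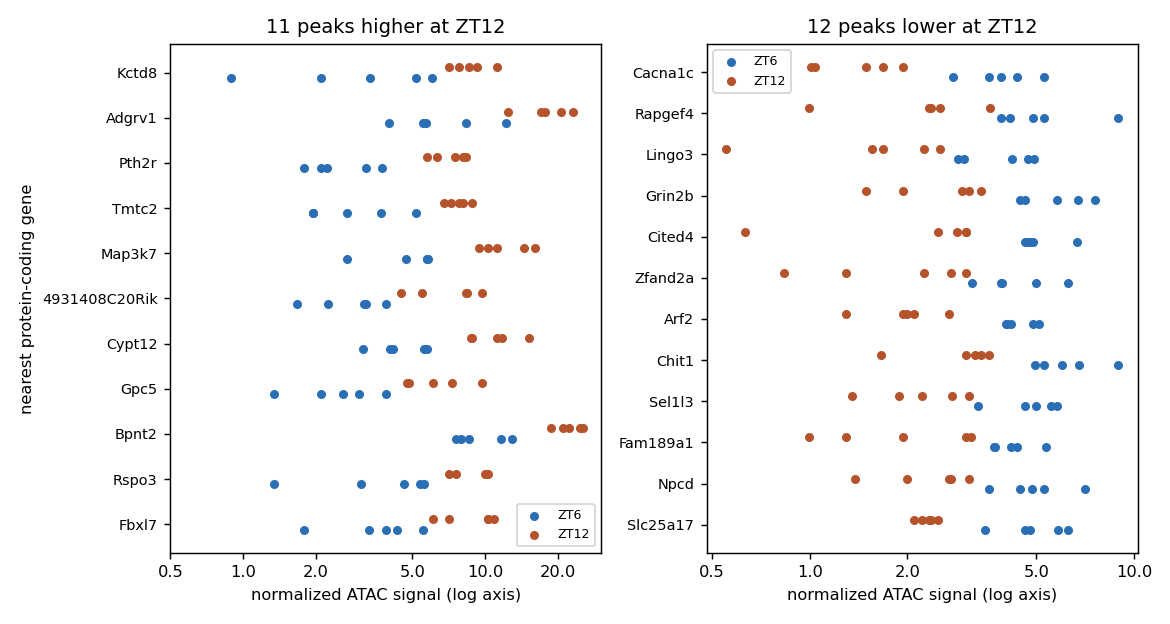
Normalized ATAC signal (log axis) of 11 of the 12 leading rises and of the 12 leading falls in each of the 5 ZT12 and 5 ZT6 libraries, 1 point per library, named by the nearest protein-coding gene. The peaks were chosen so that the groups do not overlap; the rises reach signals above 20, while the falls stay below 10.

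Of the 12 promoters with a called peak over the window from 250 bases before to 50 after the start, 7 were higher and 5 lower, and 2 (Gm3942 and Gm38777) were still called without T6N4. With the wider limit of 1 kb from a start used above, 22 of 15964 promoter peaks were called, 11 higher and 11 lower. At Tecrl, whose sequence with 2 CG dinucleotides is shown above, the signal was 9.12, 10.1, 9.72, 12.6 and 10.9 at ZT12 and 6.03, 4.94, 5.30, 7.76 and 2.68 at ZT6. The groups did not overlap, and the difference was 0.97 (SE 0.20, adjusted p = 0.00475; 0.133 without T6N4). At Hps4, with 39 CG dinucleotides, the signal was 7.74, 6.4, 8.22, 6.51 and 7.76 at ZT12 and 8.33, 14.2, 11.8, 11.1 and 18.7 at ZT6. Here every ZT12 library was lower, by a narrow margin from J76N1 (difference -0.73, SE 0.19, adjusted p = 0.0451; 0.299 without T6N4). Gm38777 rose by 0.86 (SE 0.17) and Glis1 fell by 0.65 (SE 0.17), both with groups that overlapped. The other higher promoters were those of Gm3942, Mettl11b, Gm41008, Gm46750 and Sh3bgrl2, and the other lower ones those of Trip4, Slc25a20 and LOC115486416. Composition did not divide the 12 by direction: Sh3bgrl2 rose with 62.8% G or C and 22 CG dinucleotides, and Trip4 fell with 44% and 8. RNA was measured for Sh3bgrl2, Trip4, Slc25a20 and Hps4, and none of the 4 passed the test (differences from -0.09 to 0.13).

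Both strands of the 250 bases were searched for 6 motifs. The E-box CACGTG was in 7.99% of the 12410 windows, in 0 of the 7 higher and in 1 of the 5 lower ones, LOC115486416. The CRE TGACGTCA was in 2.46% of all windows and in that of Hps4, and the AP-1 motif TGANTCA in 4.71% and in that of Tecrl. The D-box TTANGTAA (1.43% of all windows), the nuclear receptor half-site AGGTCA (9.73%) and the EGR motif GCGTGGG (7.01%) were in none of the 12.

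RNA of the same animals shows which genes near a called peak changed as well. In RNA, 248 of 13842 genes were higher at ZT12 (1.79%) and 288 lower (2.08%). A called-higher peak lay within the span of 155 measured genes or 10 kb of it; 8 of those were higher in RNA (5.16%) and 2 lower (1.29%). A called-lower peak lay at 71 measured genes, with 2 higher and 2 lower in RNA (2.82% each). Of these 14 genes, 10 moved the same way in both assays, and the genes named here from among them were chosen after their values were seen.

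The clearest joint rise was at Hif3a, which codes for a hypoxia-inducible factor subunit that also acts as an inhibitor of the HIF response. Its peak, inside the gene at chr7:17058086-17058738, had signals of 19.1, 18.2, 20.4, 17.9 and 18.9 at ZT12 and 9.62, 10.0, 9.92, 8.32 and 8.47 at ZT6. The 5 values of each time were close together and the groups far apart, with a difference of 0.99 (1.99-fold, SE 0.16, adjusted p = 0.000354). Hif3a RNA had a mean log2 level of 3.11 ± 0.22 (SD, n = 5) at ZT12 and 1.83 ± 0.25 at ZT6, a difference of 1.28 (SE 0.14, limma adjusted p = 5.41e-09). The peak lies in a gene-rich stretch of 21 protein-coding genes, unlike most rises. Without T6N4 its adjusted p was 0.0043, and with the gene-poor minus gene-dense measure as a covariate 0.00808.

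Zbtb16, a zinc finger repressor known as a glucocorticoid-induced gene, had a pair of called-higher peaks inside it. The peak at chr9:48737307-48737876 had 22.1, 18.9, 21.4, 17.6 and 18.9 at ZT12 and 14.1, 14.2, 15.5, 10.3 and 10.3 at ZT6. The groups did not overlap (difference 0.62, SE 0.15, adjusted p = 0.0332), and the other peak rose by 0.58 (SE 0.15, adjusted p = 0.0457). Without T6N4 the adjusted p-values were 0.211 and 0.127, and with the covariate both peaks were called. Zbtb16 RNA rose by 0.44 (SE 0.09, adjusted p = 0.00166). Kitl, the ligand of the KIT receptor, had a peak at 18.9 to 23.6 at ZT12 and 9.15 to 16.1 at ZT6 (difference 0.65, SE 0.15, adjusted p = 0.0155), and its RNA rose by 0.34 (SE 0.07). Cables1, Pcdh15, Rspo3, Sesn1 and Kdsr also rose in both assays, and Lgi4 and Ubash3b fell in both. For Kdsr and Lgi4 the peak was counted by the 10 kb limit only. The Kdsr one had Vps4b as its nearest gene, 4.5 kb away, and the Lgi4 one overlapped Fxyd1. Rspo3 codes for a secreted enhancer of Wnt signalling and Sesn1 for a stress-induced regulator of mTORC1. Opposite directions were seen at Cited4 and Grik5, with lower peaks and higher RNA, and at Npas3 and Synpo2, with higher peaks and lower RNA. Without T6N4, the peaks of 13 of the 14 genes were no longer called, and Hif3a was the 1 that kept its call. Grik5, a kainate receptor subunit, held 2 lower peaks (differences -0.85 and -0.87) while its RNA rose by 0.18 (SE 0.05).

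**Figure D4:**
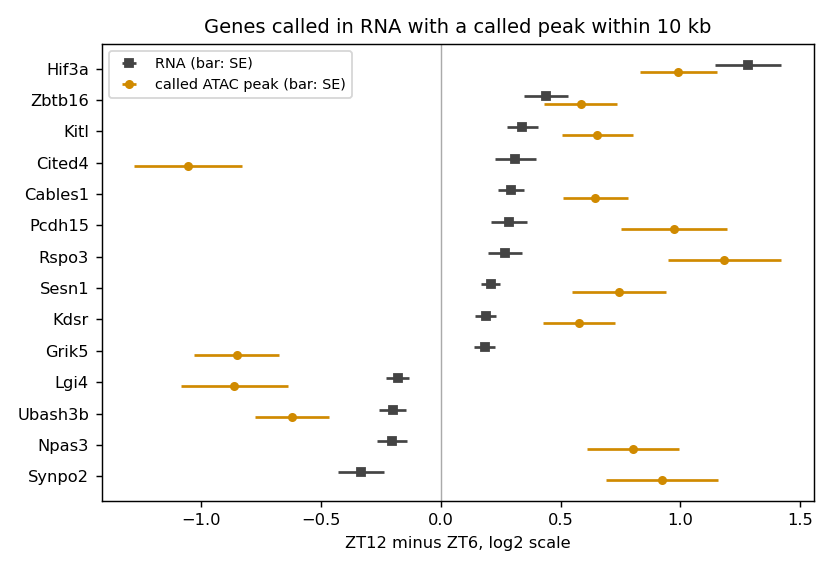
ZT12 minus ZT6 difference (log2 scale; bars, SE) in RNA (squares) and at the called ATAC peak (circles; the first by position where a gene has 2) of the 14 genes called in RNA with a called peak within 10 kb. Hif3a stands highest in RNA at 1.28, and Cited4, Grik5, Npas3 and Synpo2 have the 2 assays on opposite sides of 0.

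Clock genes changed in RNA, and none of their peaks was called. Of 22 clock and clock output genes 11 were higher in RNA at ZT12 and 2 lower, while 0 of the 247 peaks within their spans or 10 kb were called, by limma or by edgeR's quasi-likelihood test on recovered reads. Of all peaks 0.504% were called by limma and 0.262% by edgeR, so a count of 0 is near the background and marks nothing particular to clock genes. At an unadjusted limma p under 0.05, 35 of the 247 passed (14.2%, against 12.8% of all peaks), 9 higher and 26 lower, where 7.24% of all peaks were higher and 5.6% lower at that limit. The median difference of the 247 was -0.11, against -0.01 for all peaks. Per2 had the largest rise in RNA (1.11, SE 0.14), and its 8 peaks ran from -0.79 to 0.43 with a smallest adjusted p of 0.0728.

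The promoters of clock genes show the contrast by animal. Ciart, a repressor of CLOCK and BMAL1, and Cry1, a core repressor, carry E-boxes in the 250 bases before their start, as do Bhlhe41, Per1 and Tef among the 16 clock genes with a peak over such a window. The Ciart window (chr3:95882229-95882478, minus strand) holds 3 and the Cry1 window (chr10:85185055-85185304, minus strand) 1, in capitals.
Ciart: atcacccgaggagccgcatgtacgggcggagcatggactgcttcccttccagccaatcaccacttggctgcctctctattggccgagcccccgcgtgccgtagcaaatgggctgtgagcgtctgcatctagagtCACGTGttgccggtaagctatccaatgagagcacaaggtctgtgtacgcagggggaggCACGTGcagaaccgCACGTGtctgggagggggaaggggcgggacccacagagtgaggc
Cry1: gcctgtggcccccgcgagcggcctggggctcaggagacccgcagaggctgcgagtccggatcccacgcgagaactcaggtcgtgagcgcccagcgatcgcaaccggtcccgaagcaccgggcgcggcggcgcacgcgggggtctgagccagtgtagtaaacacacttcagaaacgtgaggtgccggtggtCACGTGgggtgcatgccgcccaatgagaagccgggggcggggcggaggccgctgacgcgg
Ciart RNA was 6.01, 6.04, 6.16, 5.87 and 6.13 at ZT12 and 5.26, 5.31, 5.25, 4.69 and 5.41 at ZT6 (log2 level), with no overlap. Its promoter peak had signals of 55.3, 61.3, 59.3, 57.8 and 47.1 at ZT12 and 49.5, 57.2, 48.9, 46.9 and 59.8 at ZT6, which overlapped throughout. The RNA difference was 0.86 (SE 0.16, adjusted p = 0.000323) and the peak difference 0.10 (95% interval -0.12 to 0.32). At Cry1 the RNA rose by 0.63 (SE 0.07, adjusted p = 4.29e-09), and the promoter peak differed by -0.13 (interval -0.37 to 0.10).

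No promoter peak of the other clock genes was called either. For Per1, a period repressor that hormones and light can induce, RNA rose by 0.76 (SE 0.18) and the promoter peak differed by 0.01 (interval -0.31 to 0.34). For Dbp, a PAR bZIP output factor, RNA rose by 0.46 (SE 0.11), and the promoter peak had a mean signal of 37.4 ± 3.35 (SD, n = 5) at ZT12 and 39.2 ± 4.30 at ZT6. For Arntl, the gene of BMAL1, RNA fell by 0.51 (SE 0.05), and its promoter peak had 60.7 ± 5.49 at ZT12 and 59 ± 6.14 at ZT6. Nfil3, the other clock gene lower in RNA (-0.49, SE 0.10), had a promoter difference in the same direction. It was -0.23 (interval -0.49 to 0.04, limma adjusted p = 0.464). Over the 10 clock genes with higher RNA and a promoter peak, the promoter differences ran from -0.13 to 0.10, and their intervals reached from -0.37 to 0.34. Rorb, a retinoid-related orphan receptor, had the largest promoter difference of the 18 clock genes with a promoter peak (0.37). Its interval, for that peak alone, was 0.08 to 0.66, and its limma adjusted p was 0.223. Rorb RNA differed by 0.02 (SE 0.09).

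**Figure D5:**
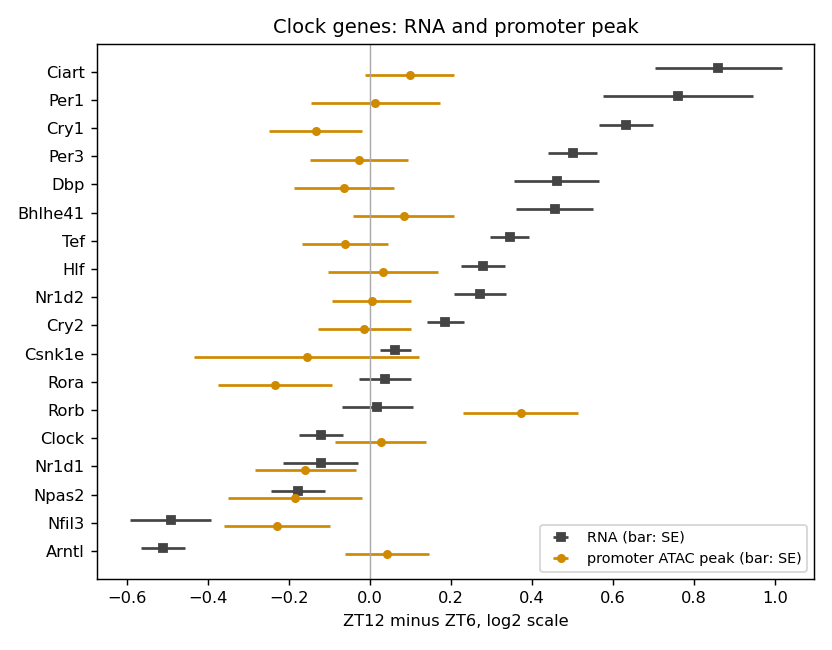
ZT12 minus ZT6 difference (log2 scale; bars, SE) in RNA (squares) and at the strongest promoter peak (circles) of 18 clock and clock output genes, ordered by RNA. RNA runs from -0.51 (Arntl) to 0.86 (Ciart), and promoter peaks from -0.23 to 0.37 with none called.

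Called peaks in other gene groups were too few to set any list apart from all peaks, of which 0.504% were called. Immediate early genes, which neurons switch on within minutes of activity, had 0 of 119 peaks called by either tool (14, or 11.8%, at an unadjusted limma p under 0.05), and 3 of 22 genes were lower in RNA, with none higher. Peaks called within the span or 10 kb of a list gene numbered 6 over the 19 lists, and none of the 6 was called without T6N4 (adjusted p from 0.0679 to 0.211). edgeR called 1 peak each in the glucocorticoid-responsive, postsynaptic and choroid plexus lists and 0 in the others. The 16 measured glucocorticoid-responsive genes were higher in RNA in 11 cases and lower in 1, with 2 of their 120 peaks called higher, both at Zbtb16. The postsynaptic list had 2 of 561 peaks called lower, in Grin2b and in Dlgap2 (a postsynaptic scaffold), and 0 genes called in RNA. The median difference of the 561 peaks was -0.11. Enpp2, which codes for autotaxin and marks choroid plexus and oligodendrocytes, held a higher peak with 13.1 to 19.2 at ZT12 and 9.68 to 11.2 at ZT6 (difference 0.67, SE 0.16, adjusted p = 0.0241). Its RNA differed by 0.00 (SE 0.04). Zbtb20, a factor of hippocampal and cortical patterning, held a higher peak of low signal (difference 1.02, SE 0.26, adjusted p = 0.0346).

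The remaining lists were MAPK feedback, cytosolic heat shock, ER chaperone and unfolded protein response, cold-inducible and cholesterol biosynthesis genes, and markers of excitatory and inhibitory neurons, astrocytes, oligodendrocytes, their precursors, microglia, endothelium and mural cells. These 13 lists held 875 peaks, of which limma and edgeR called 0 and 96 had an unadjusted limma p under 0.05 (11%, against 12.8% of all peaks). By list this share ran from 0% of the 11 cold-inducible peaks to 25.5% for inhibitory neuron markers (12 of 47, 6 higher and 6 lower). Mural cell markers had 17% (8 of 47). Endothelial markers fell in RNA in 5 of 12 cases and rose in 2. The falls included Cldn5, a tight junction protein of the blood-brain barrier (-0.72, SE 0.10), and Kdr, a VEGF receptor (-0.46, SE 0.09). Slc2a1, the glucose transporter of that barrier, rose by 0.58 (SE 0.06). Of 10 mural cell markers Vtn (-0.31, SE 0.07) and Pdgfrb (-0.20, SE 0.06) fell. Of the 71 endothelial peaks 8 had an unadjusted limma p under 0.05 (11.3%). The part of these cell types in the ATAC differences was not tested.

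Batches and other mice gave partial repeats of the direction. Within batch 1, 298 peaks were called higher (0.228%) and 91 lower (0.0696%). In the 4 libraries of batch 2, which that call did not use, 272 of the 298 were also higher (91.3%, against 49.1% of all peaks) and 56 of the 91 lower (61.5%, against 50.9%). These peaks share the same 4 libraries, so they are not separate repeats. Batch 2 alone called 0 peaks by limma, with 4739 at an unadjusted p under 0.05, and the difference between the batches' changes was called at 0 peaks (4565 unadjusted).

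Mice sampled at the same times of day on the second day after sleep deprivation gave no called difference: T60 against T54 had 0 peaks by limma, 4221 at an unadjusted p under 0.05, and 1 higher and 1 lower by edgeR. T60 belongs wholly to batch 2 and T54 to batch 1, so this rests on the batch term. Of the 571 higher peaks 394 were positive there (69%, against 50.1% of all peaks), with a median of 0.13. Of the 88 lower ones 53 were negative (60.2%, against 49.9%). In plain means without the batch term, 66% of the higher peaks were positive (51.4% of all peaks) and 53.4% of the lower ones negative (48.6%). Among the leading peaks, 10 of the 12 rises but only 2 of the 12 falls kept their sign in the fit with the batch term. T36 against T30, the hours of recovery after deprivation, went the other way: 206 of the 571 were positive (36.1%, against 50.7%). That comparison called 88 peaks (0.0673%). ZT0 controls labelled T24 against those labelled T0, a negative control, gave 0 called peaks. Even so, 9914 of 130727 peaks had an unadjusted limma p under 0.05 there, against 16793 for ZT12 against ZT6.

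The level of the called peaks in the other libraries is a description, since the ZT12 and ZT6 libraries chose them. The mean log2 signal of the 571 peaks minus that of the 88 was 1.62 to 2.01 in the ZT12 libraries and -0.53 to 0.67 in the ZT6 libraries. It was 0.39 to 1.06 in the 8 ZT0 controls, 0.49 to 1.00 in the 3 ZT3 controls and 0.56 to 1.24 in the 4 ZT18 controls. The 49 libraries outside the comparison ran from 0.18 to 1.44, overlapping the ZT6 range but not the ZT12 range, and the highest of them was a T60 library.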

How the data were processed

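Cortex ATAC-seq and RNA-seq of 5 ZT12 and 5 ZT6 control mice were analysed with the other libraries of the series. The members and gene lists were chosen with earlier results of these data known. The authors used MACS2 2.1.1, bedtools 2.26.0, HTSeq 0.6.1, kallisto 0.43.0, sleuth 0.29.0, Bowtie2, SAMtools and FastQC, per the submitters' processing notes, which also name builds GRCm38 and mm10 but neither order nor settings. Duplicate and mitochondrial reads had been removed, per the labels' protocols. The deposited ATAC values are a normalized signal per peak: each is a whole multiple of what 1 read is worth in its library (100% of values within 0.02). Dividing by that step gave reads in peaks of 2.21 to 11.9 M over 59 libraries (1 repeat library was left out). The deposited RNA values are log2 levels with an offset of 0.5, batch-adjusted by the authors as the values show. RNA library depth is not given by the values.

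Differences were fitted with limma 3.58.1 in R 4.3.3 (a mean for each group, batch as a term, an intensity trend) on log2(signal + 0.5) of 59 ATAC libraries (41 residual degrees of freedom) and on 62 RNA libraries as deposited (44). p-values were two-sided and adjusted by the Benjamini-Hochberg method over 130727 peaks or 13842 genes; calls lie below 0.05. They measure the spread between mice, 1 library each. edgeR 4.0.16 (quasi-likelihood, TMM) was run on the recovered reads. The fit was also run on simulated reads that held neither a batch effect nor a library-wide shift. That run therefore cannot show how the calls respond to either. Single values per library were compared by exact permutation tests. Genes come from RefSeq GRCm38.p6: spans of all 255 list genes were matched, but transcription starts of 186, so peaks were assigned to a gene by its span and 10 kb, a choice made after seeing the data; by the nearest start within 50 kb, 1 called peak fell in a list. No start in the table lies on chromosome 18, which was left out of promoter counts. Peak sequences were not used here, so motifs were searched in promoter windows. Leading peaks were the 12 largest rises and falls among calls whose groups do not overlap, with a mean signal above the 25th percentile; list genes with a called peak were named too. Of the leading rises, 1 is not reported here.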

Additional observations from a re-analysis of the deposited data

Results flagged for a closer look

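In 7 of 100 sets of 5 libraries examined, 1 library stood apart from the other 4 by the gap criterion. The criterion is set so that about 1 in 20 sets of unselected values would pass. Most sets here are of peaks called on the same libraries, so that rate is no reference for the 7. At the Cited4 peak T12N5 had a signal of 0.630 against 2.49 to 3.04 in the other ZT12 libraries, and T6N4 had 6.69 against 4.61 to 4.88 at ZT6. At the Chit1 peak T12N1 had 1.66 against 3.03 to 3.57. At the peak near Rapgef4 T6N4 had 8.92 against 3.89 to 5.27. At the Zbtb16 peak starting at 48723285 T12N2 had 25.9 against 18.7 to 20.2. In RNA, Per3 was 5.24 in T12N4 against 5.40 to 5.44 in the other ZT12 animals, and Ciart was 4.69 in T6N3 against 5.25 to 5.41 at ZT6 (log2 levels).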

How the results depend on the processing

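None of the 659 called peaks changed sign under any alternative run. Each run reused all or some of the libraries that had chosen these peaks, so a kept sign is no independent repeat. Pseudocounts of 1 and 0.1, a filter at the 25th percentile, quantile or TMM scaling, no batch term and depth as a covariate gave 445 to 652 higher and 69 to 96 lower peaks. limma without a trend gave 73 and 19, edgeR 322 and 21 (301 and 21 shared with limma), only the 10 libraries 870 higher, batch 1 alone 298 higher, batch 2 alone 0 and 0 (2 against 2), and the gene-poor minus gene-dense covariate 25 and 3. Leaving out 1 library gave 54 to 1121 higher and 3 to 211 lower peaks. The cause was not tested. Of 576 values of the 24 leading peaks under alternatives, 433 stayed below 0.05 and 143 did not. The Hif3a peak stayed below 0.05 under every alternative but batch 2 alone (adjusted p = 1) and the block below (0.28).

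RNA gave 161 and 171 genes over only the 10 libraries, 65 and 55 in batch 1, 69 and 42 in batch 2, and 175 lower with the level filter; leaving out 1 library gave 154 to 258 higher and 169 to 304 lower. T60 against T54 gave 2 higher peaks without the batch term, 1 and 1 by edgeR, and 0 in each leave-one-out fit. The gene-poor measure differed by 0.45 within batch 1 and 0.26 within batch 2, with too few libraries in either batch for a p below 0.05, and by 0.31 to 0.42 with 1 library left out; the promoter share differed by -0.83 to -0.30 percentage points. Promoter peaks gave 0 called peaks in a list, and gene spans 6.

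Animal numbers give no pairing: deviations of same-numbered animals correlated at -0.104 to 0.034 in ATAC and -0.066 to -0.03 in RNA over 4 pairs each. With the number as a replicate block over the 10 libraries, 0 peaks were called either way (limma, 10229 at an unadjusted p under 0.05), and 3 genes were higher and 0 lower. In that fit T6N3, T12N5 and T12N6 share their number with no other library, so they add nothing to the contrast. J76N2 and T6N2 share a number across batches. Few libraries are thus left to carry the fit, and its counts cannot show whether the differences hold. Low-signal peaks are the least precise.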
